A study of Caenorhabditis elegans with 6 samples.

Results

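The SID genes (systemic RNAi defective) sid-1, sid-2, sid-3 and sid-5 were followed in lin-35(n745) mutants and in the wild type of the nematode Caenorhabditis elegans, in larvae of the first stage (L1) that had been starved. They were chosen by name, as every probe set (the group of oligonucleotides on the array that reports 1 transcript) annotated with a single gene symbol from this family. Each of the 4 genes had 1 such probe set, so the family made up 4 of the 17118 genes measured. The allele n745 is a nonsense mutation in lin-35, which encodes the retinoblastoma (Rb) protein of the worm. Wild-type larvae carried no labelled allele, and the labels name no strain. Both genotypes had hatched from bleached eggs into S-basal buffer without cholesterol or food and were collected after 30 h at 20 °C, so no fed larvae enter any comparison. Each genotype had 3 arrays, called biological replicates in the labels, of RNA from whole larvae on a one-colour Affymetrix array.

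In worms, double-stranded RNA that enters one cell or the gut lumen can silence the matching gene throughout the body, a process called systemic RNA interference (RNAi). SID-2 is a transmembrane protein at the lumenal face of the intestine that takes up double-stranded RNA from swallowed material. SID-1 is a membrane protein that lets double-stranded RNA pass into the cytoplasm, and a cell without it does not receive the silencing signal from other cells. SID-3 is a tyrosine kinase related to mammalian ACK that is needed for efficient import, and SID-5 is a small endosomal membrane protein that promotes movement of the signal between cells. Animals without LIN-35, a transcriptional repressor of the DREAM complex, are known to be more sensitive to RNAi than the wild type. The comparison asks how transcripts of the import and spreading genes differ between these genotypes during starvation.

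The SID genes did not move as a block. The kinase gene sid-3 rose to 2.21 times its wild-type reading in lin-35(n745) larvae, and the endosomal gene sid-5 fell, to 0.475 of it. The importer genes sid-1 and sid-2 read 1.64 and 1.57 times the wild type in the mutant, and neither passed the test. Thus 1 of 4 genes was called higher and 1 lower (limma, Benjamini-Hochberg adjusted p under 0.05), against 11.3% of all probe sets called in either direction, 5.69% higher and 5.59% lower. With 4 genes, 2 calls say little about the family as a whole. On all 6 arrays the groups of every SID gene stood apart: the mutant arrays lay wholly above the wild type for 3 genes and wholly below it for 1. Of all probe sets 30.5% were separated in this way, 13.3% with the mutant above and 17.2% with it below. RNA came from whole larvae, so fewer cells of a type and less RNA per cell cannot be told apart in any of these differences.

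**Figure D1:**
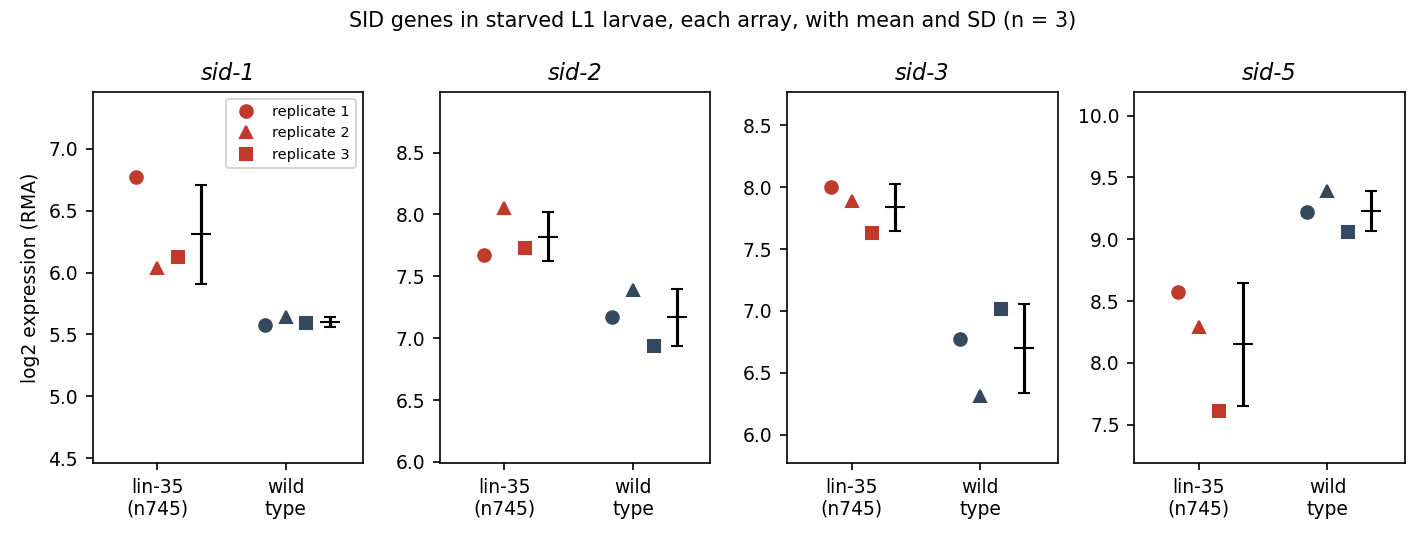
Log2 expression (RMA) of sid-1, sid-2, sid-3 and sid-5 on each array, lin-35(n745) in red at the left of each panel and wild type in dark grey at the right, with symbols for the replicate number and black bars for the mean and SD (n = 3). Each panel spans the same number of log2 units around its own centre, and the mutant points lie above the wild-type points in the first 3 panels and below them in the panel of sid-5.

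At the gut lumen, sid-2 read 7.67, 8.05 and 7.73 on lin-35(n745) replicates 1 to 3, against 7.17, 7.39 and 6.94 on wild-type replicates 1 to 3 (log2 units). The lowest mutant array lay 0.28 above the highest wild-type array. Means were 7.82 ± 0.20 in the mutant and 7.17 ± 0.23 in the wild type (SD, n = 3 each), so that the log2 difference was 0.65, its standard error (SE) 0.18 and its adjusted p 0.0646 in limma. The 95% confidence interval of the difference, taken without adjustment for the number of probe sets, ran from 0.22 to 1.08. In fold terms this interval ran from 1.16 to 2.12. The probe set of sid-2 belongs to the class designed to match a single transcript. In the gene table sid-2 overlaps dyf-2, a gene of ciliary transport, whose own probe set differed by −0.11 (limma, adjusted p = 0.827).

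For the importer sid-1, the mutant readings were 6.77, 6.04 and 6.13 on replicates 1 to 3, against 5.58, 5.64 and 5.59 in the wild type. Wild-type arrays spanned 0.06 log2 units and the mutant arrays 0.72, with mutant replicate 1 well above the other mutant arrays. Means were 6.31 ± 0.40 in lin-35(n745) and 5.6 ± 0.04 in the wild type (SD, n = 3 each), a log2 difference of 0.71 with an SE of 0.21 and a confidence interval of 0.21 to 1.21 (limma, adjusted p = 0.0775). Mutant replicate 1 was also the array on which the 3' and 5' probe sets of control transcripts, which part where RNA is degraded or copied in part, lay farthest apart. The actin control differed by 2.31, 0.41 and 1.23 log2 units between its 3' and 5' ends on mutant replicates 1 to 3, against 0.53, 0.70 and 0.78 on the wild-type arrays. Without mutant replicate 1 the sid-1 difference was 0.48 (limma, adjusted p = 0.105), and with the actin difference as a covariate it was 0.46 (adjusted p = 0.182). The probe set of sid-1 is of the class that can match several transcripts.

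The kinase gene sid-3 gave the clearest increase of the family. It read 8.00, 7.89 and 7.63 on lin-35(n745) replicates 1 to 3, against 6.77, 6.31 and 7.02 in the wild type. The lowest mutant array lay 0.61 log2 units above the highest wild-type array, and the wild type, with a range of 0.71, was the more variable genotype for this gene. Means were 7.84 ± 0.19 in the mutant and 6.70 ± 0.36 in the wild type (SD, n = 3 each). The log2 difference was 1.14 with an SE of 0.22 and a confidence interval of 0.63 to 1.66 (limma, adjusted p = 0.0188), which is a fold of 1.55 to 3.15. Of all probe sets 8.11% differed by more in size. The call was lost without wild-type replicate 1 (difference 1.18, limma adjusted p = 0.0681) and with the actin covariate (1.09, adjusted p = 0.0565). Like that of sid-1, this probe set can match several transcripts, and it was the only one annotated to sid-3 alone.

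The endosomal gene sid-5 moved the other way. Its readings were 8.57, 8.29 and 7.61 on lin-35(n745) replicates 1 to 3, against 9.22, 9.39 and 9.06 in the wild type. All mutant arrays lay at least 0.50 below the lowest wild-type array, and mutant replicate 3 lay lowest. Means were 8.15 ± 0.50 in the mutant and 9.23 ± 0.16 in the wild type (SD, n = 3 each), a log2 difference of −1.07 with an SE of 0.26 and a confidence interval of −1.68 to −0.46 (limma, adjusted p = 0.0409). The wild-type reading was thus 2.10 times the mutant reading, with an interval of 1.38 to 3.21. This call sat close to the threshold. It was kept without mutant replicate 1 (−1.28, limma adjusted p = 0.0255) and lost without mutant replicate 2 (−1.14, 0.0698) or 3 (−0.80, 0.0573), without wild-type replicate 1 (−1.07, 0.124), 2 (−0.99, 0.122) or 3 (−1.15, 0.0711), and with the actin covariate (−1.19, 0.0669). The probe set of sid-5 is of the single-transcript class.

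In an exact two-sided permutation test over the arrays each of the 4 genes gave p = 0.1, the smallest value that 3 arrays against 3 allow. Groups that do not overlap must give this value, as 30.5% of all probe sets do, so the test adds nothing to the separation given above. The percentile of each reading among all probe sets of its array places none of these genes at the dim end. A percentile does not show detection, and detection calls were not used. For sid-1 on the wild-type arrays it lay below the midpoint, so a part of that reading can be background. On the mutant arrays it lay at 49.3 to 58.0 for sid-1, 68.3 to 72.3 for sid-2, 70.2 to 72.5 for sid-3 and 69.9 to 79.1 for sid-5. On the wild-type arrays it lay at 46.2 to 46.6 for sid-1, 60.7 to 66.7 for sid-2, 54.7 to 61.7 for sid-3 and 84.3 to 87.4 for sid-5. These are positions of fluorescence signals and do not rank the transcripts by abundance, since probe sets bind with different strength.

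The protein-coding genes on either side of each SID gene were measured too, 8 in all, and 0 of 8 were called (limma, adjusted p under 0.05). Among all genes 11.8% were called, so 0 of 8 is near that share and says little. At an unadjusted p under 0.05 cul-2, which encodes a cullin of ubiquitin ligases and follows sid-2, was the exception. It read 9.25 ± 0.25 in the mutant and 8.54 ± 0.22 in the wild type (SD, n = 3 each), a difference of 0.71 (limma, adjusted p = 0.0565). The other neighbour of sid-2 is dyf-2, given above. Beside sid-1, C04F5.9 differed by −0.29 (adjusted p = 0.36) and F14F9.5 by 0.12 (adjusted p = 0.749) in limma. Beside sid-3, B0302.2 differed by 0.18 (adjusted p = 0.559) and B0302.5 by 0.20 (adjusted p = 0.513). Beside sid-5, pes-23 differed by 0.03 (adjusted p = 0.936) and the sodium/proton exchanger gene nhx-4 by 0.07 (adjusted p = 0.893). The neighbours of the 2 called genes thus had intervals that all included 0, while whether a SID gene differed more than its neighbours was not tested. Of these neighbours B0302.2 and pes-23 were dim, with means over the arrays of 2.94 and 4.21, below the 25th percentile of 4.29. A difference of these dim genes can be understated.

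**Figure D2:**
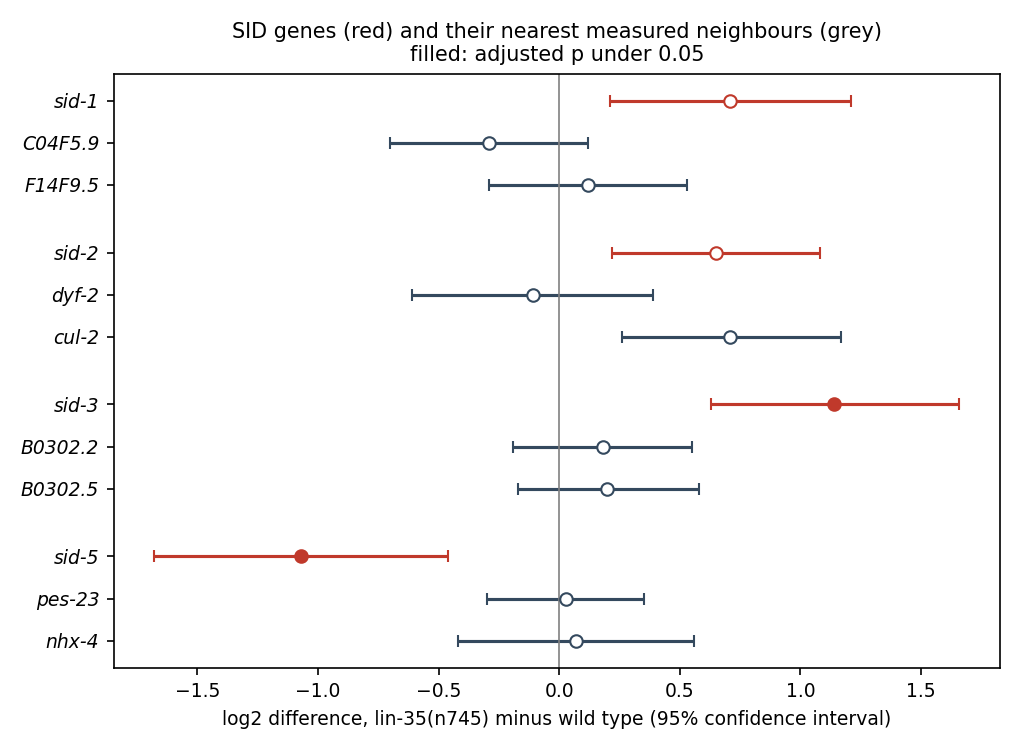
Log2 difference, lin-35(n745) minus wild type, with its 95% confidence interval for the SID genes (red) and the protein-coding gene on either side of each (dark grey), with filled points for an adjusted p under 0.05 in limma. The intervals of the 4 SID genes and of cul-2 leave out 0, and those of the other 7 neighbours include it.

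Other genes of RNA spread and of the vesicles it uses were mixed. Of 9 such genes, all measured, 2 rose and 0 fell (limma, adjusted p under 0.05), with a median log2 difference of −0.10 (0.07 with cyclic loess), against 5.71% higher and 6.12% lower among 17118 genes, whose median was −0.04. The endocytic recycling gene rme-1 rose by 1.49 (SE 0.31, adjusted p = 0.0258), reading 10.94, 10.51 and 10.28 on mutant arrays and 9.39, 8.42 and 9.44 on wild-type arrays. The RNAi spreading gene rsd-2 rose by 0.90 (SE 0.23, adjusted p = 0.0477). Neither call was firm: that of rme-1 was lost without any 1 of the mutant arrays or wild-type replicate 1 (limma, adjusted p 0.0562 to 0.059), and that of rsd-2 without any 1 array but mutant replicate 3 (0.0667 to 0.136). The dimmer probe set of rsd-2 differed by 0.77 and was not called (limma, adjusted p = 0.0585), while that of rme-1 differed by 1.48 and was (adjusted p = 0.0292). The count of 2 fell to 0 without mutant replicate 1, mutant replicate 2 or wild-type replicate 1, and with the actin covariate or unmoderated statistics. It fell to 1 without mutant replicate 3 or wild-type replicate 2 or 3. The count of 0 lower was not firm either. It was 1 with repeated quantile normalization, array weights, unmoderated statistics or a floor at the 10th percentile. Another spreading gene, rsd-6, read 7.85 ± 0.04 in the mutant and 8.33 ± 0.04 in the wild type (SD, n = 3 each; −0.48, limma adjusted p = 0.0608). The sid-1 paralogue chup-1, whose product acts in cholesterol uptake, differed by −0.33 (limma, adjusted p = 0.434, confidence interval −0.87 to 0.20). The SNARE gene sec-22, whose product binds SID-5 and limits RNAi, differed by 0.12 (adjusted p = 0.81). For the late endosome and lysosome genes rab-7 and lmp-1 the differences were −0.39 (adjusted p = 0.248) and −0.21 (adjusted p = 0.706).

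Genes that act on double-stranded RNA once it is inside the cell were read next. Of 23 genes of the exogenous RNAi machinery 21 were measured, and 7 rose and 1 fell, with a median of 0.53, against 5.71% higher and 6.12% lower among all genes and their median of −0.04. The double-stranded RNA binding gene rde-4 rose by 2.39 (SE 0.21, limma adjusted p = 0.00122), with 9.57, 9.25 and 9.07 on mutant arrays and 7.25, 6.76 and 6.70 on wild-type arrays. It works with the nuclease Dicer, whose gene dcr-1 rose by 1.01 (SE 0.25, adjusted p = 0.0457). The Dicer-related helicase genes rose as well, drh-1 by 1.34 (adjusted p = 0.00193), drh-2 by 2.26 (adjusted p = 0.0215) and drh-3 by 1.59 (adjusted p = 0.0179). Since drh-1 and drh-2 are close paralogues and both probe sets can match several transcripts, their values are uncertain as readings of each gene alone. The amplification genes rde-3, a nucleotidyltransferase, and mut-7, an exonuclease, rose by 1.49 (adjusted p = 0.0018) and 1.70 (adjusted p = 0.00663). A further amplification gene, mut-15, fell by 0.72 (limma, adjusted p = 0.029). The lower count of 1 was 0 without mutant replicate 2 or 3, without wild-type replicate 1 or 3, and with the actin covariate. It was also 0 with unmoderated statistics or with trend and robust settings, and 2 with median centring or array weights. With 1 array left out at a time, rde-3, rde-4, drh-1 and mut-7 passed the test in all 6 fits. The call of drh-3 was lost without wild-type replicate 1 (limma, adjusted p = 0.0644), that of drh-2 without replicate 1 or 2 of either genotype (0.0522 to 0.0812), that of dcr-1 without any 1 array but wild-type replicate 3 (0.0852 to 0.141) and that of mut-15 without any 1 array but wild-type replicate 2 (0.0535 to 0.126). The count of 7 was 4 without wild-type replicate 1, 4 with the actin covariate and 3 with unmoderated statistics. Only 9 genes of the list had a brightest probe set of the single-transcript class. Of these 2, rde-3 and drh-3, were called higher and 1, mut-15, was called lower. The dimmer probe set of mut-7, of that class, was called too (1.00, limma adjusted p = 0.0162), and that of drh-1 was not (0.42, 0.264). The Argonaute genes sago-2 and ppw-1 share a probe set with each other and were not counted.

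Genes whose loss enhances RNAi, the ERI class, gave no call. Of 10 genes 9 were measured and 0 were called by limma, while 1 of the 9, eri-3, had an unadjusted p under 0.05 (difference −0.66, adjusted p = 0.112), and 1 was called lower with array weights and 1 without mutant replicate 3. The median was 0.10 and the differences ran from −0.66 to 0.38. The remaining gene, adr-1, shares its probe set with a neighbour. Of 5 nuclear RNAi genes 1 rose and 0 fell, with a median of −0.05 (0.01 with cyclic loess). That gene was hrde-1, the germline nuclear Argonaute of inherited silencing, which read 8.38, 7.97 and 8.98 on mutant arrays and 5.21, 4.49 and 4.91 on wild-type arrays (difference 3.58, SE 0.30, limma adjusted p = 0.000876), and it passed the test in all 6 fits without 1 array. The other 4, nrde-1 to nrde-4, lay between −0.25 and 0.09. Over these lists together 11 of 44 measured genes, 25%, were called, against 11.8% of all genes, and no test of that difference was made.

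**Figure D3:**
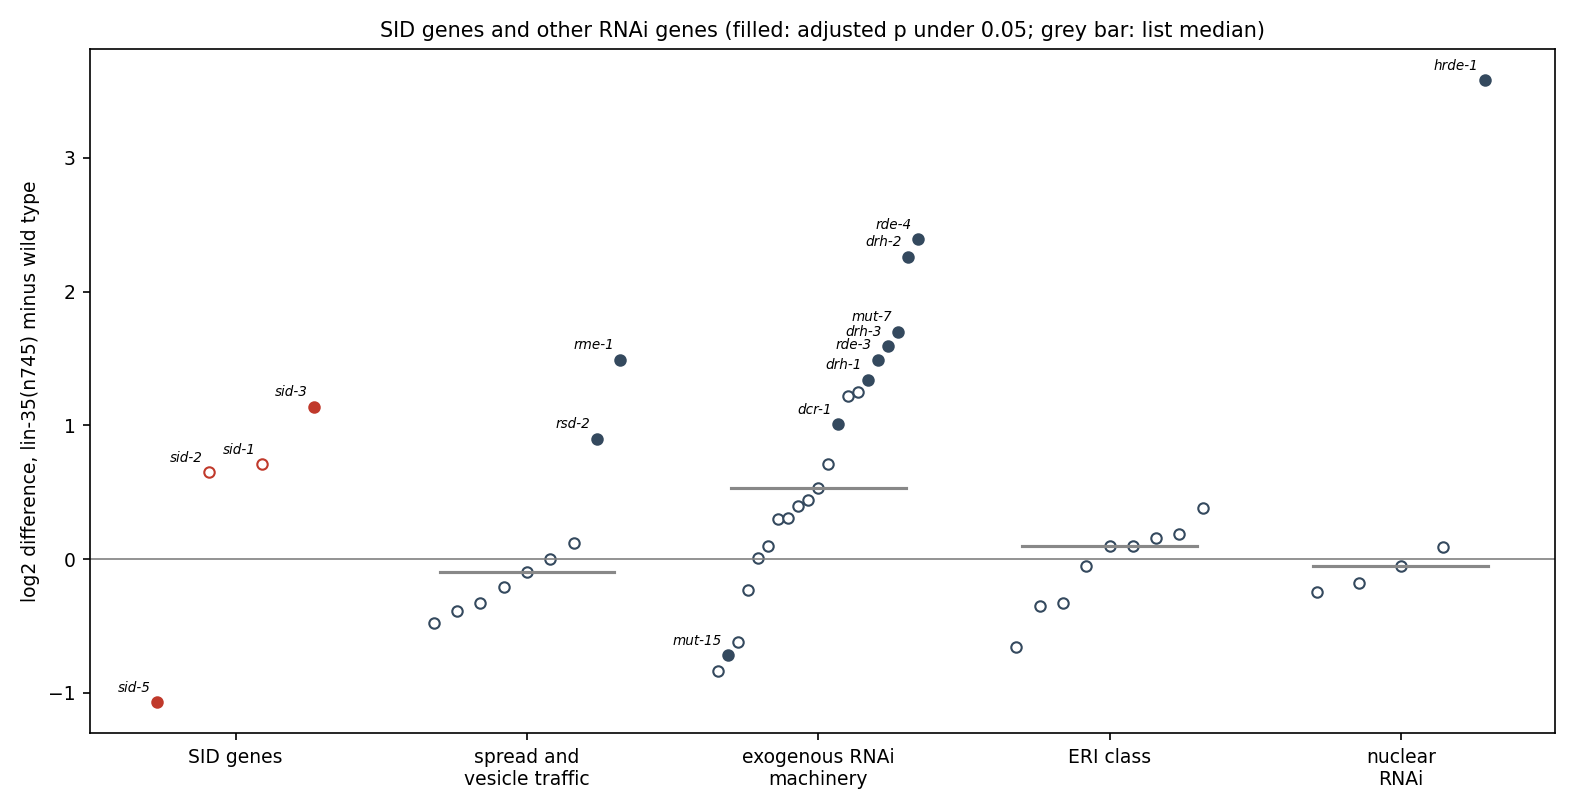
Log2 difference, lin-35(n745) minus wild type, of the SID genes (red) and of other RNAi genes (dark grey) by list, each gene by its brightest probe set, filled where the adjusted p in limma is under 0.05, with grey bars for list medians. The exogenous RNAi machinery holds 7 filled points above 0 and 1 below, and the ERI class holds none.

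The genes whose pattern over the 6 arrays was most like each SID gene were found by Pearson's correlation of log2 values among 12930 other genes above the 25th percentile of mean reading. All points share the same 6 arrays, most of each correlation comes from the gap between genotypes, and no test was made. For sid-1 they were aex-4, a SNARE protein gene (r = 0.997), Y32B12B.2 (r = 0.996) and F09C8.1 (r = 0.996), all of which also read highest on mutant replicate 1. Y32B12B.2, for example, read 7.15, 5.63 and 5.71 on mutant arrays and 4.58, 4.87 and 4.81 on wild-type arrays. For sid-2 they were the mitochondrial fission gene mtp-18 (r = 0.998), the hexokinase gene hxk-1 (r = 0.997) and abhd-5.1 (r = 0.996). For sid-3 they were stip-1 (r = 0.998), the centriole assembly gene sas-4 (r = 0.997) and T19D12.1 (r = 0.996). For sid-5 they were T28C6.8 (r = 0.999), F29B9.11 (r = 0.998) and the mitochondrial import gene tin-9.1 (r = 0.998), which read lowest on mutant replicate 3 as sid-5 did. Of the other genes 0.92% had r above 0.95 with sid-1, 0.913% with sid-2, 1.99% with sid-3 and 3.39% with sid-5.

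Markers of the tissues of a larva were read beside these genes. Among all genes 11.8% were called (limma, adjusted p under 0.05), so few or no calls in lists this short say little. The brighter lin-35 probe set read 7.42 ± 0.25 in the mutant and 7.36 ± 0.19 in the wild type (SD, n = 3 each; limma, adjusted p = 0.894). This checks no label, since a nonsense mutation may or may not lower its transcript. Intestine markers bear on sid-2, and of 4 the gut transcription factor elt-2 rose by 0.98 (limma, adjusted p = 0.0215) and the peptide transporter pept-1 by 1.04 (adjusted p = 0.0226). The esterase ges-1 differed by 0.39 (adjusted p = 0.145) and the apical proton pump subunit vha-6 by −0.62 (adjusted p = 0.19). The summed linear readings of the 4 ran from 2790 to 3740 on mutant arrays and from 3150 to 4810 on wild-type arrays, where vha-6 is the brightest. Their mean log2 reading ran from 9.07 to 9.28 on mutant arrays and from 8.52 to 8.91 on wild-type arrays, wholly higher in the mutant. Their part in the sid-2 difference was not tested. Of 3 body wall muscle, 3 hypodermis and 4 neuron markers 0 were called by limma, and 1, the neuron gene rab-3, had an unadjusted p under 0.05 (−0.40, adjusted p = 0.134). Wild-type replicate 2 stood apart for muscle, with myosin unc-54 at 9.21 against 11.63 and 12.60 on the other wild-type arrays. Without it the differences were 0.73 for sid-1, 0.76 for sid-2, 0.95 for sid-3 and −0.99 for sid-5. Of 7 markers of oocytes, embryos and adults 0 were called and 0 had an unadjusted p under 0.05, with mean readings of 5.09 to 5.45 on mutant arrays and 5.02 to 5.27 on wild-type arrays. The yolk gene vit-2 read 3.52 ± 0.64 in the mutant and 3.08 ± 0.05 in the wild type (SD, n = 3 each), at the dim end of the array. The cuticle collagen bli-1 was also dim, at 3.86 ± 0.18 in the mutant and 4.01 ± 0.09 in the wild type (SD, n = 3 each).

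The direction of all 4 SID genes was the same under every setting that gave a value, while the calls were not. Much of this was fixed in advance. The groups of arrays did not overlap for any SID gene, so leaving out arrays could not reverse a direction. The filters, the replicate block and the other variance models cannot change the difference itself. The increase of sid-3 passed the test in 13 of 17 alternatives and the decrease of sid-5 in 10 of 18. For sid-1 and sid-2 the test was passed in 1 alternative each, with array weights (limma, adjusted p = 0.0429 and 0.0302). Differences ran from 0.95 to 1.30 for sid-3, from −1.28 to −0.80 for sid-5, from 0.44 to 0.85 for sid-1 and from 0.53 to 0.88 for sid-2.

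**Figure D4:**
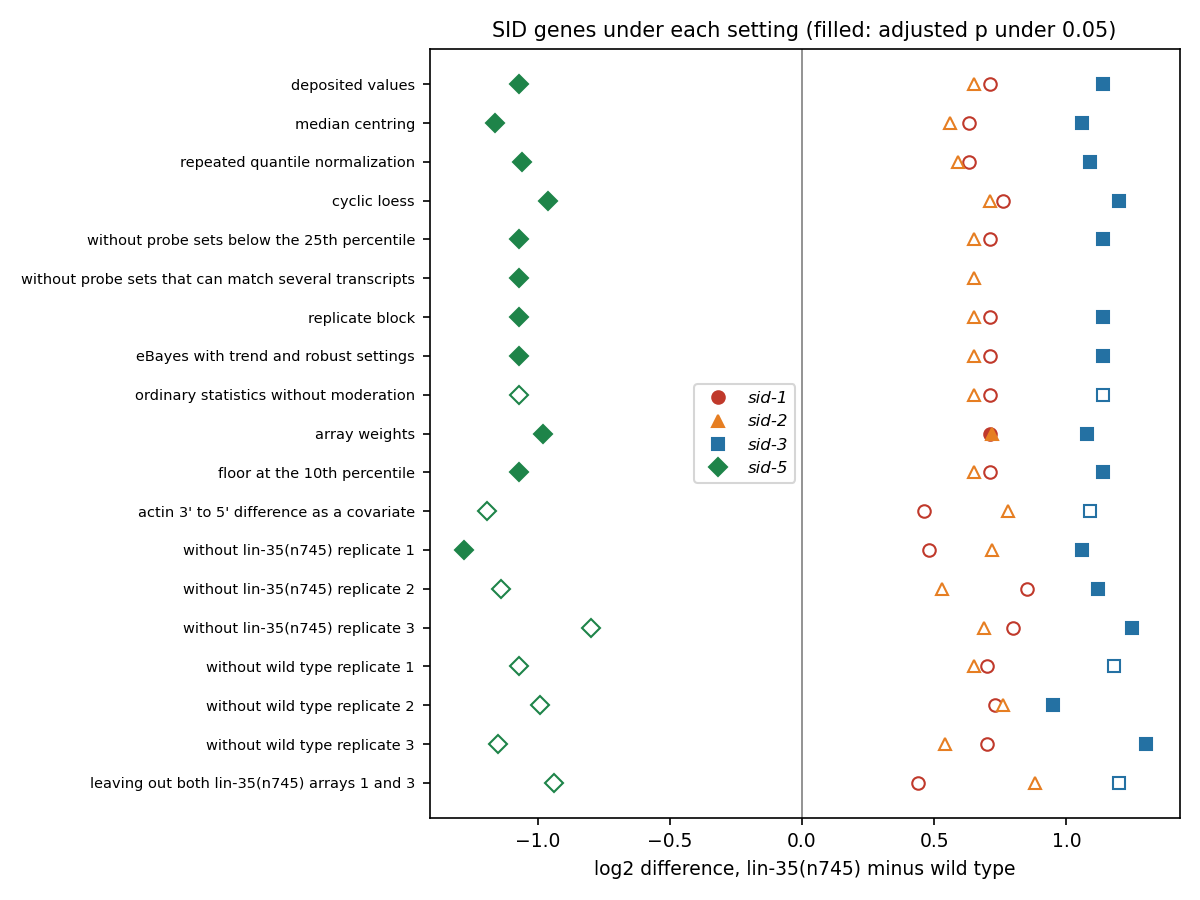
Log2 difference, lin-35(n745) minus wild type, of each SID gene (shape and colour) under the deposited values and under each alternative setting, filled where the adjusted p is under 0.05. All points of sid-5 lie below 0 and all points of the other 3 genes above it, and filled points are frequent for sid-3 and sid-5 and appear for sid-1 and sid-2 with array weights alone.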

How the data were processed

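Values were used as the authors deposited them, on a log2 scale with a reading for each probe set on each array. They were made with RMA, per the submitters' processing notes, which give no version of it. This method subtracts background, equalises the arrays' distributions and summarises probes, so a shift of all transcripts in one direction would be hidden and the differences of dim probe sets are understated. Array medians lay between 5.91 and 6.11, and correlations within a genotype between 0.974 and 0.99. Filters before deposit were not given in the sources used here. Detection calls were not used. Of 22625 probe sets 77 controls were left out, and the other 22548 were tested with limma 3.58.1 in R 4.3.3 (lmFit and eBayes, two-sided), as the mutant minus the wild type, at a threshold of 0.05 on p-values adjusted over all of them by the Benjamini-Hochberg method. The limma residual degrees of freedom were 4, with 3.24 from the prior. The number of arrays, 3 per genotype, limits the precision. The fit was tested on simulated data, in which few probe sets were changed, so recovery in the real data may differ. There 0 of 67 probe sets changed 1.5-fold were called, 15 of 67 changed 2-fold and 65 of 66 changed 4-fold, with 7 false calls. A gene that was not called, such as sid-1 or sid-2, is thus not shown to be unchanged.

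Probe sets were named from the platform's annotation, whose symbols can be out of date. It gave 1 symbol to 20766 of them, more than 1 to 887 and none to 895. Each of the 17118 genes was represented by its brightest single-symbol probe set. A WBcel235 gene table gave the neighbours' names alone. The members, the lists of RNAi genes and tissue markers, and the tests were chosen with earlier results of these data known. The genes named were the SID genes, lin-35, from each RNAi list the called members and the one of smallest p, the 3 genes most like each SID gene, and the neighbours of the SID genes. Some others of the lists were given for their roles. Alternatives were other normalizations, filters, variance models and array weights, the replicate number as a block, a 3' to 5' covariate, and leaving out arrays.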

Additional observations from a re-analysis of the deposited data

How the results depend on the processing

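No SID gene changed direction in any of the 18 alternatives that gave it a value, though many of them could not reverse it, as said above. With ordinary unmoderated statistics sid-3 (1.14) and sid-5 (−1.07) were no longer called and 478 probe sets were, against 2542. With the actin 3' to 5' covariate the calls of sid-3 (1.09) and sid-5 (−1.19) were lost, as they were with lin-35(n745) replicates 1 and 3 both left out (1.20 and −0.94, with 768 probe sets called), a fit whose lone mutant array has no spread of its own and borrows that of the wild type. Array weights brought sid-1 (0.71) and sid-2 (0.72) past the threshold. Without probe sets that can match several transcripts 1643 were called, and sid-1 and sid-3 had no value. Leaving out 1 array at a time gave 0.95 to 1.30 for sid-3, called in 5 of 6 fits, and −1.28 to −0.80 for sid-5, called in 1 of 6. The number of probe sets called then ran from 1002 (without wild-type replicate 1) to 2380, with 1371 without wild-type replicate 2 and 1578 without lin-35(n745) replicate 3. The cause was not tested, beyond the fewer arrays or probe sets in these fits.

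Deviations from the genotype mean on arrays of the same replicate number correlated at 0.05, 0.08 and 0.07 across probe sets. No array correlated best with its own number. Such weak values give no sign that the numbers pair the arrays and cannot exclude it. With the replicate block 3063 probe sets were called, against 2542 without it. The SID differences stayed at 0.71, 0.65, 1.14 and −1.07, as they must in a balanced design, and their calls did not change. Median centring moved the median difference of all probe sets to −0.11, against −0.03 as deposited, and the share of higher calls to 37.6%, against 50.4%; cyclic loess gave 59.5%. Medians near 0 of the RNAi lists moved by similar amounts, and that of the ERI class was 0.01 with median centring, while those of the spread and nuclear lists turned positive with cyclic loess. Each SID gene had 1 probe set, so the alternative of another probe set was not run.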

Other observations

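Several RNAi genes had probe sets of the same direction on different sides of the threshold, so their calls depended on which probe set stood for the gene. These were picked after their values were seen. For rde-12, a helicase of the RNAi pathway, the brighter probe set differed by 1.22 (limma, adjusted p = 0.0734) and the dimmer by 1.77 (adjusted p = 0.00192). For the Argonaute sago-1 the brighter differed by 1.25 (limma, adjusted p = 0.147) and the dimmer by 1.32 (adjusted p = 0.0266). For the nuclease gene rde-8 the brighter differed by −0.84 (limma, adjusted p = 0.0907) and the dimmer by −0.77 (adjusted p = 0.0292). In the other direction, the called increase of drh-1 on its brighter probe set was 1.34 (limma, adjusted p = 0.00193), while the dimmer one, which read 3.92 ± 0.38 in the mutant and 3.50 ± 0.03 in the wild type (SD, n = 3 each), differed by 0.42 (adjusted p = 0.264). The germline Argonaute gene hrde-1 was called on 2 of its 3 probe sets, at 3.58 and 3.72, and the dimmest differed by 1.10 (limma, adjusted p = 0.116).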
